A study of Mus musculus with 20 samples.

Results

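The genes described here encode the subunits of Mediator and the general transcription factors that assemble with RNA polymerase II at promoters, measured in mouse embryonic stem cells (ESCs) with and without Cnot3. Members were chosen by a rule on gene symbols, with earlier results of these data known. Gene IDs of the count tables were paired with mouse symbols in GENCODE M21, and every protein-coding gene was taken whose symbol was Med or Taf with a number (a final l, for a gene named as like another, was allowed) or Gtf2a to Gtf2h with or without a number. This gave 59 members of 37991 gene IDs, of which 20214 were protein-coding. Mediator held 30 members (7 of the head, 9 of the middle, 9 of the tail, 4 of the kinase module and Med14, the backbone that joins them), the TATA-binding-protein-associated factors (TAFs) 17, and the factors TFIIA, B, E, F and H 12. Genes of these complexes with other symbols, such as Tbp, Cdk8 or Ercc3, are not members and are given as lists further on.

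RNA was sequenced from 20 libraries in 10 groups of 2 biological replicates. Cnot3 is part of the CCR4-NOT complex, and its allele in these cells can be deleted on demand. They were given DMSO (WT) or 0.1 µM 4-hydroxytamoxifen (4OHT), which deletes the allele (KO). On day 3 of 4OHT, RNA of whole cells (total) and RNA associated with polysomes were taken from both arms. In a separate series, actinomycin D, which blocks transcription, was added at 10 µg/ml on day 2 of 4OHT, and RNA was taken at 0, 4 and 8 h in both arms. The strain is given as C57BL/6 throughout. The 4 WT libraries of day 3 carry the source name E14Tg2a ESCs and all the others Cnot3 cKO ESCs, so cell line and deletion cannot be told apart on day 3 if the source names are right. Neither the Cre driver nor the number of clones is stated in the sources used here.

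Mediator is a large complex that carries signals from transcription factors at enhancers to RNA polymerase II. Its head and middle modules contact the polymerase, its tail contacts activators, and its kinase module binds reversibly and blocks the contact with the polymerase. TFIID, made of the TATA-binding protein and TAFs, recognises the promoter. TFIIA and TFIIB stabilise its binding, TFIIF arrives with the polymerase, and TFIIE and TFIIH open the DNA. Some TAFs are also subunits of SAGA, a coactivator that modifies histones. CCR4-NOT acts at another step: it shortens the poly(A) tails of mRNAs in the cytoplasm, which starts the decay of most of them. The data therefore give, for each member, how much mRNA was present and how quickly it was lost once synthesis was blocked.

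Gene counts per library ran from 13832829 to 35170012. Members took 0.357% to 0.407% of the counts of the total libraries and 0.411% to 0.513% of those of the polysome libraries. After actinomycin D their share went from 0.447% and 0.444% at 0 h to 0.369% and 0.366% at 8 h in WT, and from 0.463% and 0.470% to 0.426% and 0.425% in KO. Cnot3 itself stood at 106.9 and 108.7 CPM (TMM-scaled counts per megacount of a library's gene counts) in WT at 0 h and at 11.4 and 11.9 CPM in KO, and at 46.1 and 47.0 CPM in WT against 7.32 and 8.11 CPM in KO total RNA. The 10 ESC markers summed to between 6886 and 7485 CPM in WT total RNA and between 3539 and 3729 CPM in KO, where 8 were called lower. The 8 trophectoderm markers summed to between 176.9 and 183.4 CPM in WT and between 625.3 and 642.6 CPM in KO, where 7 of them were called higher, and to between 141.0 and 151.2 CPM and between 243.8 and 259.1 CPM at 0 h. Feeder fibroblast markers, 8 genes of which 5 of 6 tested were called higher, summed to 22.6 to 25.6 CPM in WT and 41.6 to 47.0 CPM in KO total RNA. Of these, Dcn and Lum were at 0 CPM in both arms at 0 h. Primitive endoderm markers, 6 genes, summed to 65.2 to 69.7 CPM in WT and 50.1 to 57.8 CPM in KO. The part of these cell type markers in the KO changes of the members was not tested. The chi-square per degree of freedom between replicates is 1 for counting error alone. It was lowest for KO at 8 h (1.29) and highest for WT polysomes (77), so every pair differed by more than that error. It cannot tell separate cultures from repeat preparations of the same RNA. Levels are scaled by TMM separately in the 8 libraries of day 3 and the 12 with actinomycin D, so the 2 sets are given side by side without a test.

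Before actinomycin D, levels in WT cells spanned a wide range when compared per kilobase of exon, with every annotated exon of a gene counted. For some members these exons are far longer than the transcript used for sequence features. They held 3523 against 572 bases for Med21 and 3614 against 973 for Med22. The order below therefore depends on this choice of length. Taf15, which encodes an RNA-binding protein, was highest at 103 ± 2.77 CPM per kb (SD, n = 2). The TFIIF subunit Gtf2f1 followed at 67.8 ± 2.18 CPM per kb, the TFIIH subunit Gtf2h1 at 60.9 ± 0.691 and the TFIID subunit Taf7 at 51.1 ± 0.746, and the replicates of these 4 did not overlap. Of Mediator, the middle subunit Med19 at 33.3 ± 2.38 CPM per kb and the head subunit Med11 at 31.6 ± 0.221 led on this scale and did not differ beyond their spread. At the other end, 2 genes related to a better known paralog were nearly silent: Taf7l at 0.951 ± 0.291 CPM per kb, against its paralog Taf7 at 51.1, and Med12l at 0.356 ± 0.00928, against Med12 at 11.3 ± 0.494. Med13l and Med13, the other paralogs of the kinase module, stood at 13.2 ± 0.402 and 12.3 ± 0.213 CPM per kb. Taf5l was higher than Taf5 (33.6 ± 0.615 and 18.5 ± 0.541 CPM per kb), and Taf6l lower than Taf6 (6.15 ± 0.0519 and 24.0 ± 0.440).

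Med10, a middle subunit, had at most 3 reads in any library and was not tested. In GENCODE M21, 92.8% of its exonic bases are shared with Gm26819, a noncoding gene on the opposite strand, and its level cannot be read from these counts. The other 58 members were tested in every comparison. Exons of 24 members overlap another gene. The shared part is 73.8% of Taf9 (with Ak6, same strand), 45.9% of Taf10 (Ilk, opposite strand) and 26.5% of Taf6 (Ap4m1). It is 26.3% of Med31 and 21.2% of Med7 (noncoding genes, opposite strand), 21.4% of Med20 (the pseudogene Kpna2-ps) and 15.3% of Med12l (Igsf10, opposite strand). The sources used here do not say whether the counting used strand, so the values of these genes are uncertain.

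**Figure D1:**
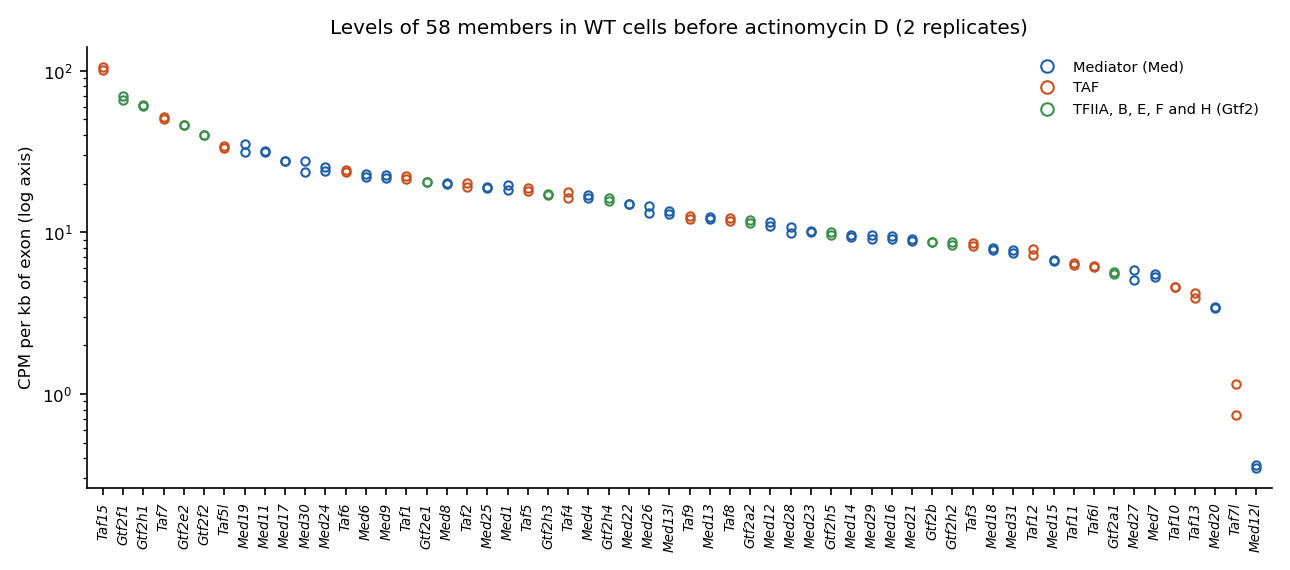
Levels of 58 members (all but Med10) in the 2 WT libraries before actinomycin D, in CPM per kilobase of all annotated exons on a log axis, ordered by the mean and coloured by complex. From Taf15 at 103 to Med20 at 3.42 the members form a continuous series, and Taf7l (0.951) and Med12l (0.356) stand below all others.

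Loss of mRNA was measured as the slope of log2 CPM over 0, 4 and 8 h. No spike-in is stated and counts are scaled to the bulk of mRNAs, so a slope of 0 means loss at the pace of the typical mRNA, not absence of loss. In WT cells, 24 of 58 members were lost faster than the typical mRNA and 24 slower (edgeR quasi-likelihood test, adjusted p under 0.05). Over all genes tested, 38.8% had a lower and 35% a higher slope, 73.8% together. The median slope was -0.0040 log2 per hour for members and -0.0062 for all genes. When counts were scaled instead to 78 cytosolic ribosomal protein mRNAs, the median slope of all genes moved to -0.15 log2 per hour in WT and -0.11 in KO. On that scale 51 members fell faster than the ribosomal protein mRNAs in WT, 54 did in KO, and 0 rose, so a positive slope below describes the order among mRNAs only. With library totals alone 32 members were lower and 17 higher in WT, and 24 and 21 in KO. Over all 15823 genes library totals gave 7680 lower and 3743 higher in WT, and 6754 and 3464 in KO.

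Within Mediator, faster loss in WT was counted most often in the middle module, where 6 of 8 tested members were lost faster than the typical mRNA and 2 slower (Med19 and Med9), with a median slope of -0.19 log2 per hour. In the head 3 of 7 were lost faster and 1 slower (median -0.0036), and in the tail 2 of 9 faster and 6 slower (median 0.083). TFIID-only TAFs had 6 of 11 lost faster and 4 slower. Taf9, Taf10 and Taf12, the 3 histone-fold TAFs that sit in both TFIID and SAGA, were all lost slower, at 0.026, 0.15 and 0.036 log2 per hour. Under library totals alone the slopes of Taf9 and Taf12 were -0.016 and -0.0063, and neither was called. Exons of Taf9 and Taf10 overlap other genes, as given above, so their slopes are uncertain. TFIIH had 4 of 5 lost slower and Gtf2h2 faster.

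In KO cells 19 members were lost faster than the typical mRNA and 28 slower, against 36.3% and 31.6% of all genes, 67.9% in both directions together. The slope itself differed between the arms for 19 of 58 members, or 32.8%, where 19% of all genes tested differed. In 15 members (25.9%) the slope was higher in KO, meaning slower loss, against 10.2% of all genes, and in 4 (6.9%) it was lower, against 8.78%. By complex, the 15 were 8 of 29 Mediator genes, 3 of 17 TAFs and 4 of 12 Gtf2 genes. The median slope difference was -0.0022 log2 per hour over members and -0.013 over all genes. With scaling to ribosomal protein mRNAs 23 members were higher and 0 lower, with DESeq2 19 and 3, with RLE scaling 17 and 1, and with library totals 20 and 2. Over all 15823 genes tested the same settings gave 3422 higher and 337 lower, 1860 and 816, 1693 and 556, and 2351 and 645. With time as a factor, 8 h against 0 h, the counts of members were even, at 20 higher and 20 lower, so the split of 15 against 4 did not hold under that fit. Over all 15823 genes that fit gave 2875 higher and 3840 lower.

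**Figure D2:**
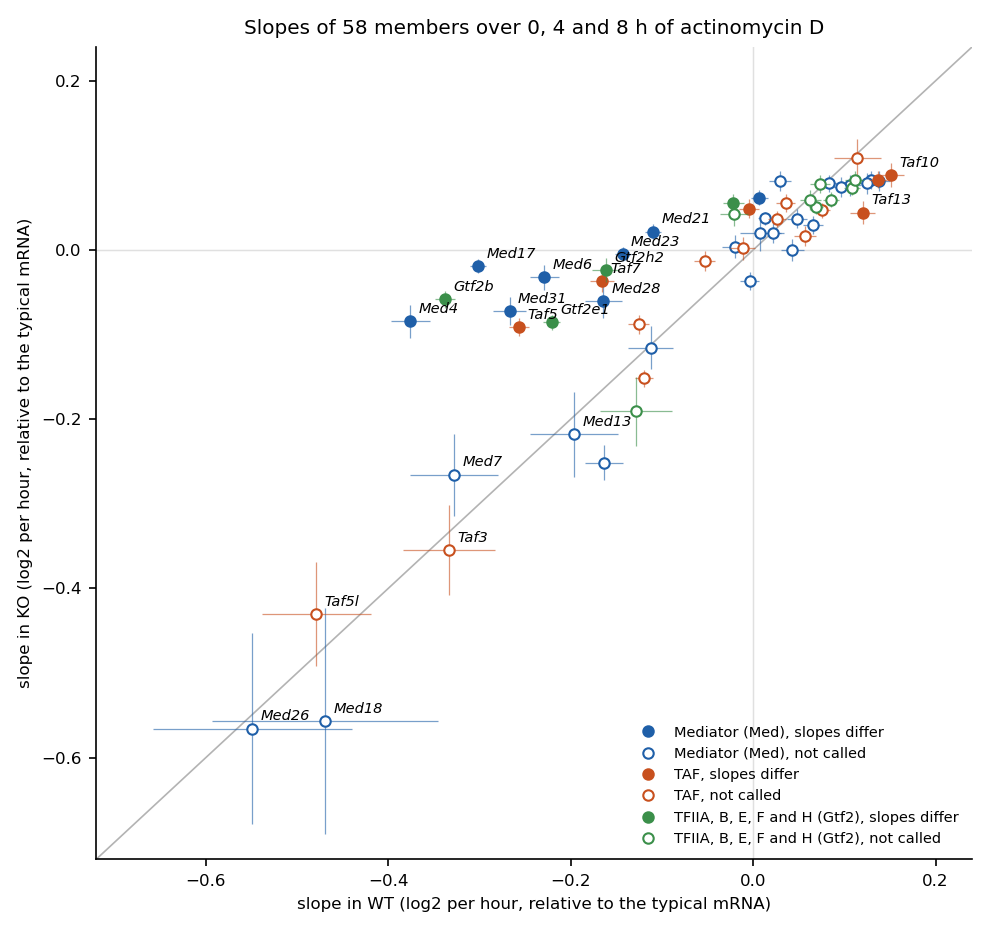
Slope over 0, 4 and 8 h of actinomycin D in WT (x axis) and KO (y axis) in log2 per hour for 58 members, with standard errors of the fit, and the line of equal slopes. Filled points are the 19 members whose slopes differed between the arms. A group from Med4 to Med21 lies left of 0 in WT and near 0 in KO, above the line, while Med26, Med18 and Taf5l lie at the lower left along it.

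The 12 members that were both lost faster than the typical mRNA in WT and lost slower in KO than in WT were 7 Mediator subunits (Med4, Med6, Med17, Med21, Med23, Med28 and Med31), 2 TFIID subunits (Taf5 and Taf7) and 3 Gtf2 genes (Gtf2b, Gtf2e1 and Gtf2h2). They were gathered by these 2 tests, so the contrast between the arms within the group is a description. Med4, a middle subunit next to the hook that contacts the polymerase, stood at 54.8 and 57.3 CPM in WT at 0 h, 24.8 and 26.9 at 4 h, and 6.81 and 6.57 at 8 h. In KO it stood at 67.3 and 64.5, 54.6 and 55.5, and 43.5 and 39.1 CPM. At 8 h the mean was 11.9% of the 0 h level in WT and 62.7% in KO, and the arms did not overlap at 4 or 8 h. The slopes were -0.38 ± 0.021 and -0.084 ± 0.019 log2 per hour (SE), and their difference 0.29 ± 0.029 (adjusted p = 3.4e-05).

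Med17, the scaffold of the head module, went from 116 and 118 CPM in WT at 0 h to 56.3 and 49.8 at 4 h and 22.3 and 21.4 at 8 h. KO libraries held 165 and 164, 161 and 156, and 147 and 149 CPM at the same times. WT thus kept 18.7% at 8 h and KO 89.9%, and the slope in KO, -0.019 ± 0.0083 log2 per hour, did not pass the test against the typical mRNA (adjusted p = 0.056). The difference of 0.28 ± 0.012 had an adjusted p of 4.3e-08.

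Gtf2b encodes TFIIB, the single protein that bridges the promoter complex and the polymerase. It stood at 39.9 and 40.2 CPM in WT at 0 h, 17.5 and 17.6 at 4 h, and 6.00 and 6.12 at 8 h. In KO the values were 47.3 and 46.3, 38.9 and 39.1, and 33.8 and 33.9 CPM. The level left at 8 h was 15.2% in WT and 72.4% in KO, with a slope difference of 0.28 ± 0.015 log2 per hour (adjusted p = 1.6e-07).

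Med6 and Med31 encode small subunits of the head and of the middle. Med6 fell from 33.4 and 31.7 CPM to 9.23 and 8.82 CPM over 8 h in WT and went from 34.3 and 30.6 to 27.7 and 26.7 CPM in KO, or to 27.8% and 83.7%. Med31 fell from 13.5 and 12.9 to 2.53 and 3.48 CPM in WT and from 14.7 and 14.0 to 9.38 and 9.77 CPM in KO, or to 22.8% and 66.9%. The slope differences were 0.20 ± 0.022 (adjusted p = 4.0e-05) and 0.20 ± 0.025 log2 per hour (adjusted p = 0.00013). In both genes the KO libraries lay above the WT libraries at 4 and 8 h without overlap.

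Taf5, the WD-repeat scaffold of TFIID, fell from 58.9 and 61.4 CPM at 0 h to 25.4 and 30.1 at 4 h and 14.5 and 14.6 at 8 h in WT, and from 57.8 and 54.8 to 44.8 and 45.9 and 33.3 and 34.5 CPM in KO. KO lay slightly below WT at 0 h and above it at 4 and 8 h, without overlap at any time, with 24.2% and 60.3% left at 8 h. The slope difference was 0.17 ± 0.015 log2 per hour (adjusted p = 9.3e-06). Taf7, a TFIID subunit that restrains Taf1, fell from 167 and 170.3 CPM to 65.1 and 69.1 CPM over 8 h in WT, while KO went from 176 and 180.1 to 142 and 148 CPM. This left 39.8% in WT and 81.4% in KO, and the difference was 0.13 ± 0.018 (adjusted p = 0.00030).

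Med21, a middle subunit, and Med23, a tail subunit that binds activators, were lost faster than the typical mRNA in WT and at close to its pace in KO. Med21 stood at 32.2 and 31.2 CPM at 0 h and 16.7 and 17.9 CPM at 8 h in WT, and at 43.9 and 43.3 and then 48.0 and 50.4 CPM in KO. Med23 stood at 68.1 and 66.9 CPM and then 31.7 and 29.5 CPM in WT, and at 100.1 and 103 and then 100.1 and 98.3 CPM in KO. Relative to the typical mRNA, the share left at 8 h was 54.5% and 45.3% in WT against 113% and 97.5% in KO. On the ribosomal protein scale it was 25.1% and 20.9% in WT against 62.95% and 54.4% in KO, so both were also lost in KO. Slope differences were 0.13 ± 0.013 (adjusted p = 1.5e-05) for Med21 and 0.14 ± 0.012 log2 per hour (adjusted p = 6.9e-06) for Med23.

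Gtf2e1, the large subunit of TFIIE, kept 29.3% at 8 h in WT and 62.3% in KO. Gtf2h2, the p44 subunit of the TFIIH core, kept 40.6% and 87.7%, and Med28, assigned here to the tail, kept 39.8% and 71.5%. Their slope differences were 0.14 ± 0.013 (adjusted p = 1.3e-05), 0.14 ± 0.021 (0.00049) and 0.10 ± 0.028 log2 per hour (0.024). Med28 differed from the others in its course: 83.6% in WT and 87.0% in KO were left at 4 h, and the arms parted between 4 and 8 h. Its call was lost when KO 0 h replicate 1 or any of the 4 libraries of 8 h was left out (adjusted p between 0.0545 and 0.0838). Those of the other 11 were kept without any 1 of the 12 libraries.

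**Figure D3:**
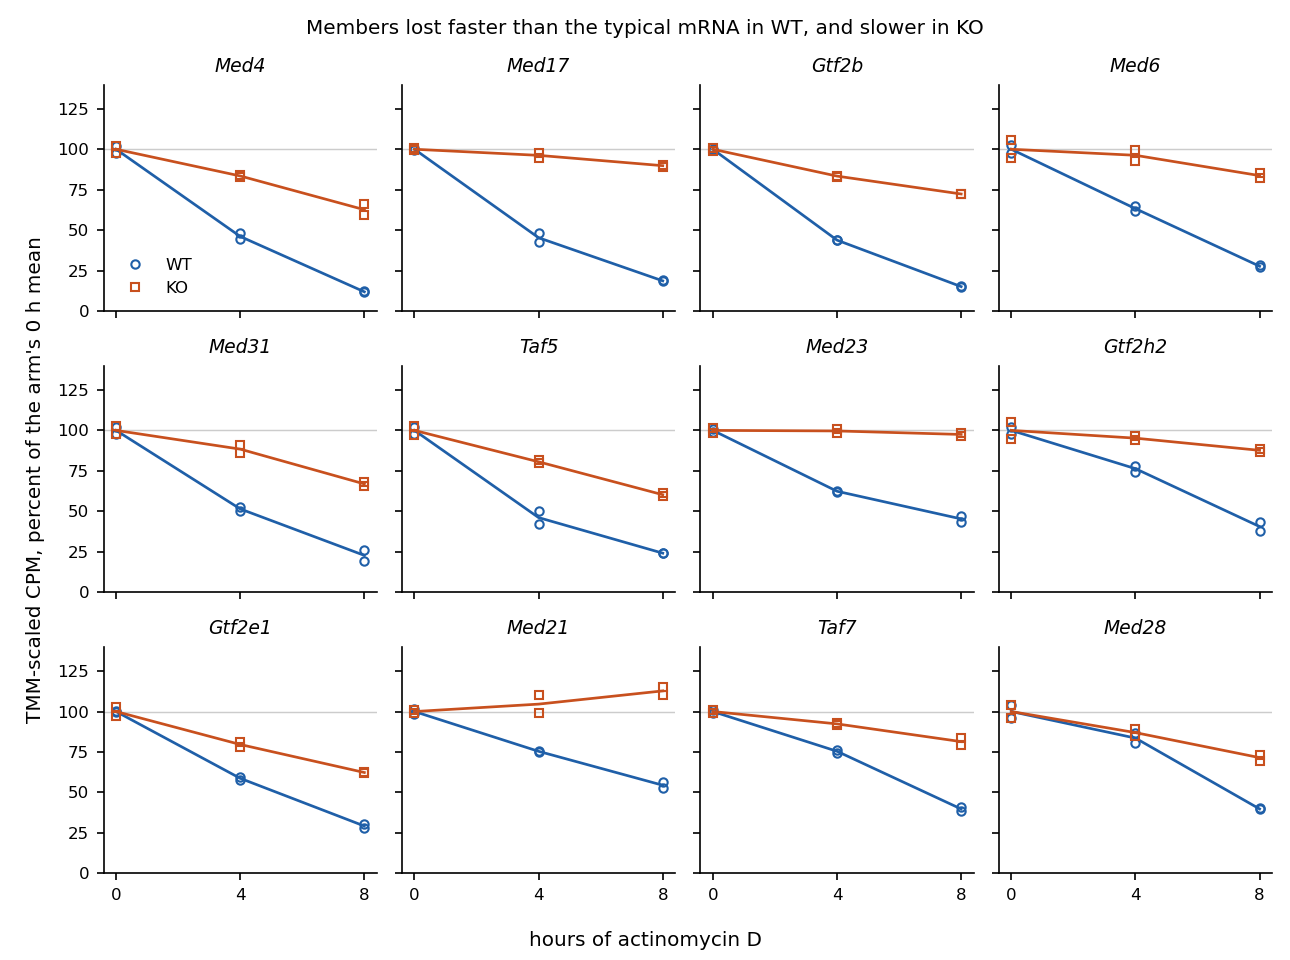
Time courses of the 12 members lost faster than the typical mRNA in WT and more slowly in KO than in WT, in order of their slope difference. The y axis is the TMM-scaled CPM as a percentage of the mean of the arm's own 0 h libraries, points are the 2 replicates and lines join the means. In all 12 panels the KO line ends above the WT line, from 62.7% against 11.9% for Med4 to 71.5% against 39.8% for Med28.

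Another 3 members had a slope difference upward without a called loss in WT. These were Gtf2f2, the small subunit of TFIIF (0.077 ± 0.016 log2 per hour, adjusted p = 0.0048), the head subunit Med8 (0.055 ± 0.013, adjusted p = 0.011) and the SAGA subunit Taf6l (0.054 ± 0.015, adjusted p = 0.027). Gtf2f2 stood at 58.9 and 58.8 CPM at 0 h and 50.7 and 53.7 CPM at 8 h in WT, and at 67.2 and 72.4 and then 92.9 and 97.0 CPM in KO. The call of Taf6l was lost without either KO 0 h library, KO 8 h replicate 1 or either WT 8 h library (adjusted p between 0.0605 and 0.0968).

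The 3′ untranslated regions (3′UTRs) of the members were searched on the sense strand for TGTANATA, the letters bound by Pumilio proteins, and for TATTTAT, a core of AU-rich elements. Pumilio proteins are RNA-binding proteins known to recruit CCR4-NOT. Of the 12 members lost faster in WT and slowed in KO, 7 (58.3%) held at least 1 TGTANATA. So did 6 of 12 (50%) of the members lost faster in WT with no upward difference, and 6 of 34 (17.6%) of those not lost faster in WT. Gtf2f2, Med8 and Taf6l, which also had an upward slope difference, are among these 34 and held no match. Over all protein-coding genes tested, grouped by the same tests, the shares were 31.1%, 36.5% and 16.5%, and 24% over all. Protein-coding genes with 3′UTRs within 1.25 times the length of each member's held it in 19.1%, 29.5% and 17.7% on average, and the median 3′UTR of the 12 slowed members, 556 bases, was shorter than the 977 bases of all genes. TATTTAT was present in 2 of 12, 8 of 12 and 10 of 34 members, and in 27.1% of all genes. A match is a description of the letters and not a measured site.

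The matches of the 7 slowed members are shown with 8 bases on either side, since they sit in members slowed in KO and in 3′UTRs shorter than the median gene's. The sequences and positions are from GRCm38 with GENCODE M21 transcripts, capitals mark TGTANATA, and coordinates are of the capital letters: Med4 at chr14:73518243-73518250 and chr14:73518520-73518527, both on the plus strand, Gtf2b at chr3:142783380-142783387 and chr3:142783474-142783481 (plus), Med31 at chr11:72211846-72211853 (minus), Med6 at chr12:81573567-81573574 (minus), Taf5 at chr19:47083444-47083451 (plus), Gtf2h2 at chr13:100468841-100468848 (minus) and Med23 at chr10:24913186-24913193 (plus).
Med4, first match: tgtttggtTGTACATAgcagccct
Med4, second match: gtaatttgTGTAAATAaacttggt
Gtf2b, first match: tggaacttTGTACATAgccacaca
Gtf2b, second match: cttctgtaTGTATATActagtgca
Med31: ttaggacgTGTATATAatgtattg
Med6: aagttattTGTATATAttactcat
Taf5: tgatatctTGTAAATAaagacaac
Gtf2h2: gttgtaacTGTAAATAaaatgatt
Med23: aaccctttTGTACATAaatgtcct
The 3′UTRs of Med31, Med6 and Gtf2b are 161, 273 and 277 bases long, lengths at which 6.12%, 7.35% and 7.4% of protein-coding genes hold the letters. Med17, Med21, Gtf2e1, Taf7 and Med28 had no match. Their 3′UTRs are 1876, 268, 1599, 1996 and 3926 bases long, lengths at which 32.7%, 7.67%, 29.7%, 34.9% and 52% of protein-coding genes hold the letters. Matches also sat in members that were not slowed. Med24 held 2 in 309 bases and Taf1 1 in 209, lengths at which 7.91% and 5.78% of protein-coding genes hold the letters. Neither was lost faster in WT. Taf4 held 3 and was lost faster in WT, with no slower loss called in KO. A part of the motif in the slowing was not tested.

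Another 12 members were lost faster than the typical mRNA in WT with no slower loss in KO called over the whole course. Their median slope in WT was -0.18 log2 per hour, against -0.225 for the 12 slowed members, but they included the 3 steepest slopes of all members, those of Med26, Taf5l and Med18. Med26, a middle subunit that recruits elongation factors, stood at 39.6 and 43.9 CPM in WT at 0 h, 2.51 and 1.77 at 4 h, and 2.75 and 2.13 at 8 h. In KO it stood at 40.4 and 40.1, 3.81 and 3.38, and 1.86 and 2.27 CPM. Within 4 h 5.12% was left in WT and 8.94% in KO, and nearly all of the loss had taken place by then. Its slopes were -0.55 ± 0.11 and -0.57 ± 0.11 log2 per hour. The course was not a straight line in either arm.

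Med18, a head subunit, went from 16.0 and 15.5 CPM to 1.20 and 0.934 CPM at 4 h in WT and from 15.3 and 13.8 to 0.622 and 0.702 CPM in KO, or to 6.79% and 4.54%, and was then flat. Taf5l, the SAGA counterpart of Taf5, went from 122 and 118 CPM to 14.0 and 17.1 CPM at 4 h and 9.12 and 8.88 CPM at 8 h in WT, and from 67.1 and 69.0 to 12.9 and 12.8 and 6.51 and 6.72 CPM in KO. Its level differed between the arms from the start, and 7.5% and 9.72% were left at 8 h. Taf3, the TFIID subunit that reads a histone mark of active promoters, kept 19.4% at 4 h in WT and 30.7% in KO, and Med7, a middle subunit, 19.8% and 40.8%. Taf5 and Taf5l thus had slopes of -0.26 and -0.48 log2 per hour in WT and -0.091 and -0.43 in KO, side by side.

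Because these courses were steeper before 4 h than after, the first 4 h were also compared on their own, as a comparison chosen after the courses were seen. Between 4 and 8 h Taf3, Taf5l, Med7 and Med26 still fell in KO, at -0.279, -0.24, -0.202 and -0.2 log2 per hour. In WT they changed by -0.0577, -0.198, -0.0425 and 0.0477. Between 0 and 4 h, 18 members had a higher and 10 a lower slope in KO than in WT, against 13.5% and 13.1% of all genes (26.6% together). Med7 was higher in KO by 0.26 log2 per hour (adjusted p = 3.1e-05), Med26 by 0.20 (adjusted p = 0.0019), Taf3 by 0.17 (adjusted p = 0.00014) and Taf5l by 0.14 (adjusted p = 4.9e-05). Med13 and Med1 differed by 0.069 (adjusted p = 0.0087) and 0.043 (adjusted p = 0.0496). At 8 h the arms overlapped for Taf3 (16.5% left in WT and 14.2% in KO) and Med26 (5.84% and 5.13%). Med7 (17.6% and 23.3%) and Taf5l (7.5% and 9.72%) still had more left in KO, while Med13 (34.0% and 30.1%) and Med1 (53.8% and 52.9%) had less, without overlap. Med13l went the other way, by -0.099 (adjusted p = 2.8e-05), with 51.8% left at 4 h in WT and 39.4% in KO, although its slope over the whole course did not pass the test (-0.088 ± 0.029, adjusted p = 0.058).

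**Figure D4:**
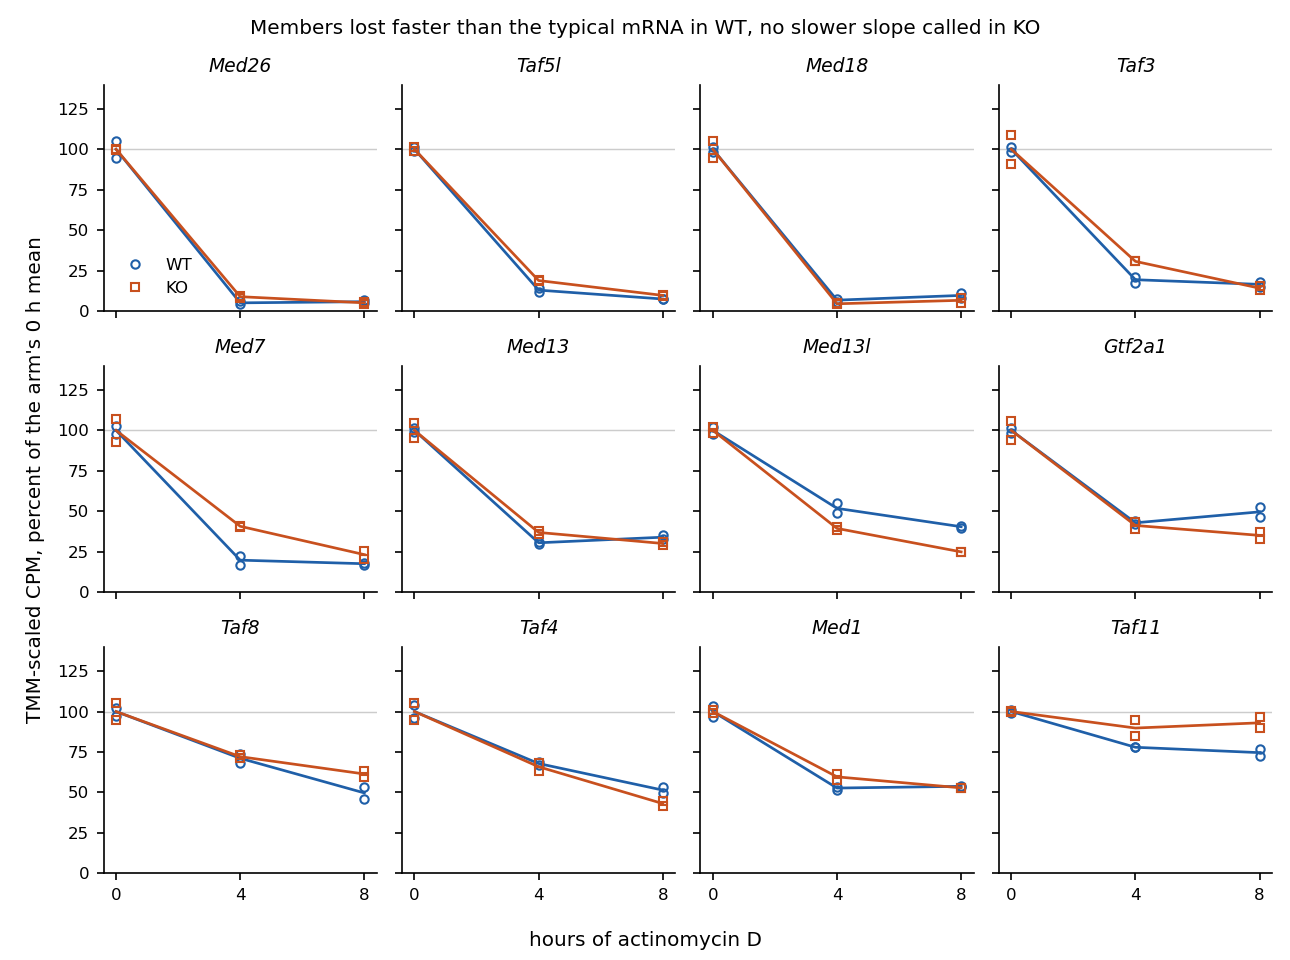
Time courses of the 12 members lost faster than the typical mRNA in WT with no slower loss called in KO, drawn as the time courses of the slowed members and ordered by their slope in WT. Med26, Taf5l and Med18 are at 19% of 0 h or less by 4 h in both arms. Med7 and Taf3 lie higher in KO at 4 h, and at 8 h Taf3 overlaps between the arms (16.5% and 14.2%) and Med7 does not (17.6% and 23.3%).

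The kinase module was split by its large subunits. Med13 and Med13l, the paralogs that link the kinase to the core, fell in both arms, to 34.0% and 40.5% of 0 h at 8 h in WT and to 30.1% and 25.0% in KO. Med12, which activates the kinase, had a slope above the typical mRNA of 0.11 ± 0.013 log2 per hour in WT and 0.077 ± 0.013 in KO, which were -0.034 and -0.028 on the ribosomal protein scale. Med12l did not pass the test in either arm (0.0077 ± 0.022 and 0.021 ± 0.021). None of the 4 had a called slope difference over 0 to 8 h.

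The slowest loss relative to the typical mRNA in WT was that of Taf10 (0.15 ± 0.014 log2 per hour), which went from 21.03 and 20.9 to 47.5 and 49.6 CPM, followed by the tail subunit Med25 (0.14 ± 0.012), Taf15 (0.14 ± 0.0099) and Med16 of the tail (0.13 ± 0.011). Of the Gtf2 genes, Gtf2h5 (0.11 ± 0.011) was slowest. Taf10 shares exonic bases with Ilk, so its place in this order is uncertain. On the ribosomal protein scale 107% of Taf10, 99.3% of Med25 and 98.4% of Taf15 were left at 8 h in WT, so they kept pace with those mRNAs. In KO the slopes of 4 of these stable mRNAs were lower than in WT: Taf13 by -0.076 ± 0.019 log2 per hour (adjusted p = 0.016), Taf10 by -0.063 ± 0.020 (0.046), Med25 by -0.057 ± 0.017 (0.033) and Taf15 by -0.053 ± 0.014 (0.017). None of the 4 was called on the ribosomal protein scale. Each lost its call when some single libraries were left out, Taf10 in 10 of 12 fits (adjusted p up to 0.186), Med25 in 6 (up to 0.137), Taf15 in 5 (up to 0.0841) and Taf13 without replicate 1 of 0 h in either arm (0.0595 and 0.0669).

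Levels after 2 days of 4OHT, before actinomycin D, differed between KO and WT for 38 of 58 members, or 65.5%, where 62.7% of all genes differed. Of these 11 were higher and 27 lower in KO, against 29.8% and 32.9% of all genes. The 0 h libraries of this comparison are the starting points of the slopes, so the 2 results share data and are given side by side only. In these bulk libraries fewer cells of a type and less RNA per cell cannot be told apart. Scaling moved the split: with library totals alone 23 were higher and 19 lower, with RLE scaling 8 and 37, and with DESeq2 7 and 34, while the median of all genes went from -0.014 to 0.14, -0.15 and -0.15 log2. Over all 15823 genes these settings gave 6609 higher and 3401 lower, 3537 and 6898, and 2681 and 5970. Gtf2b, Gtf2f2 and Med4 were not called with DESeq2 or RLE scaling, nor Med12l with DESeq2, and Med16, Med25 and Taf15 changed sign with library totals alone.

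Of the 12 slowed members, 6 were higher in KO at 0 h and Med28 was lower (-0.36 ± 0.058, adjusted p = 1.3e-06). Over all genes tested 29.8% were higher and 32.9% lower, and other genes of the same loss groups were not compared. Med23 was higher by 0.59 ± 0.049 (adjusted p = 1.8e-13), Med17 by 0.49 ± 0.046 (3.5e-12), Med21 by 0.46 ± 0.059 (9.4e-09), Gtf2e1 by 0.41 ± 0.045 (3.0e-10), Med4 by 0.23 ± 0.054 (0.00024) and Gtf2b by 0.23 ± 0.053 (0.00035). Med6 (-0.0018 ± 0.066), Taf5 (-0.096 ± 0.056), Taf7 (0.078 ± 0.041), Med31 (0.12 ± 0.096) and Gtf2h2 (-0.025 ± 0.060) did not pass the test. Of the 12 fast members without an upward difference, Taf5l, Taf8, Med13, Med13l, Med1, Taf4, Taf11 and Taf3 were lower in KO and the other 4 did not pass the test. The call of Taf3 was lost without replicate 1 of 0 h in either arm (adjusted p between 0.0740 and 0.341). Of the other calls at 0 h, those of Med16 (adjusted p up to 0.189), Med9 (0.372), Taf15 (0.127) and Taf9 (0.108) were lost without 2 or 3 single libraries of 0 h. Taf5l fell most, by 0.82 on the log2 scale (SE 0.051, adjusted p = 4.2e-17), followed by Med19 (-0.70 ± 0.059, adjusted p = 4.0e-13).

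On day 3, in separate libraries, fewer changes were called when the total and polysome libraries were fitted together. In total RNA 4 members were higher and 9 lower in KO, or 22.4% of members, where 28.2% of all genes were called (16% higher and 12.2% lower). In polysome RNA 7 were higher and 11 lower, or 31%, where 37% of all genes were called (15.9% and 21.1%). With only the 4 total libraries fitted, 11 members were higher and 26 lower, and 10936 of 18924 genes were called. With only the 4 polysome libraries fitted, 4 were higher and 4 lower, and 3287 of 15157 genes were called. With library totals alone the counts were 12 higher and 4 lower in total RNA, and 15 and 6 in polysomes, with the median of all genes at 0.27 and 0.15 log2 in place of 0.013 and -0.083. Over all 18303 genes library totals gave 5169 higher and 913 lower in total RNA, and 4547 and 2001 in polysomes. The day 3 counts of the joint fit were sensitive to single libraries, both for members and over all genes, so a shift below is not particular to the members. Without any 1 of the 4 total libraries 1 member was higher and 3 to 5 were lower in total RNA, and without either WT polysome library 10 were higher and 24 lower. In polysomes, leaving out KO replicate 1 or 2 gave 4 or 3 higher and 7 lower, WT replicate 1 gave 15 higher, WT replicate 2 gave 23 lower, and any total library gave 7 lower.

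Taf7l, a testis-enriched relative of Taf7, had the largest change of the members. It stood at 4.46 and 4.01 CPM in WT and 17.3 and 17.8 CPM in KO total RNA, at 2.89 and 2.00 against 18.9 and 28.8 CPM in polysomes, and at 1.67 and 2.60 against 7.20 and 5.76 CPM at 0 h on day 2. KO libraries lay above WT libraries in all 3, by 2.05 ± 0.23 (adjusted p = 0.00034), 3.30 ± 0.26 (3.7e-05) and 1.59 ± 0.17 log2 (1.2e-10). Its slopes after actinomycin D were 0.11 ± 0.026 in WT and 0.11 ± 0.023 log2 per hour in KO, and the 95% interval of their difference ran from -0.080 to 0.068. Taf7 itself was not called in total RNA (0.071 ± 0.20), polysomes (0.34 ± 0.20) or at 0 h.

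Med12l, the scarce paralog of Med12, was also higher in KO total RNA (0.74 ± 0.17 log2, adjusted p = 0.011). It stood there at 8.91 and 10.8 CPM in WT and 15.8 and 17.2 CPM in KO. It was also higher by 0.80 ± 0.19 in polysomes (adjusted p = 0.0092) and by 0.53 ± 0.13 at 0 h. Exons of Med12l overlap Igsf10, as given above, so its values are uncertain. Med12 stood at 28.7 and 35.7 CPM in WT and 17.1 and 19.6 CPM in KO polysomes and was lower there (-0.81 ± 0.16, adjusted p = 0.0036) and at 0 h (-0.44 ± 0.048), but not called in total RNA (-0.32 ± 0.16). Med17 was higher by 0.63 ± 0.14 in total RNA (adjusted p = 0.0088) and 0.80 ± 0.14 in polysomes (adjusted p = 0.0018), and Med21 by 0.48 ± 0.14 (adjusted p = 0.028) and 0.53 ± 0.14 (adjusted p = 0.014). Gtf2f1, Gtf2e1 and Med15 passed in polysomes alone among the day 3 comparisons, at 0.82 ± 0.19, 0.48 ± 0.17 and 0.44 ± 0.13. These 3 stood at 0.47 ± 0.19, 0.26 ± 0.16 and 0.31 ± 0.13 in total RNA.

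Among the members lower in KO, Taf5l stood at 125 and 133 CPM in WT and 75.4 and 70.3 CPM in KO total RNA, and at 144 and 135 against 66.9 and 60.9 CPM in polysomes (-0.82 ± 0.13, adjusted p = 0.0018, and -1.13 ± 0.14, adjusted p = 0.00022). The tail subunit Med30 changed by -0.81 ± 0.14 and -0.89 ± 0.14, and the TFIID subunits Taf13 by -0.80 ± 0.13 and -0.58 ± 0.14, Taf8 by -0.68 ± 0.13 and -0.92 ± 0.13, and Taf4 by -0.50 ± 0.14 and -0.58 ± 0.14. Gtf2a2, the small subunit of TFIIA, changed by -0.51 ± 0.15 and -0.75 ± 0.15, Gtf2h5 by -0.52 ± 0.16 and -0.52 ± 0.16, Taf10 by -0.49 ± 0.15 and -0.82 ± 0.15, and Med28 by -0.43 ± 0.13 and -0.40 ± 0.13. All 9 were also lower at 0 h on day 2. Med1, the middle subunit that binds nuclear receptors, was lower in polysomes (-0.46 ± 0.15) and at 0 h (-0.41 ± 0.045).

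Of the 13 calls in total RNA, those of Taf7l, Taf5l, Med30 and Taf13 were kept without any 1 of the 8 libraries of day 3. The call of Taf8 was lost without KO total replicate 2 (adjusted p = 0.059), that of Gtf2h5 without 3 of the total libraries, that of Med21 without any total or KO polysome library, and those of Gtf2a2, Med12l, Med17, Med28, Taf10 and Taf4 when any 1 of the 4 libraries of total RNA was left out, with adjusted p up to 0.32. In polysomes the calls of Taf7l, Taf5l, Taf8, Med30, Taf10, Med12, Gtf2a2 and Med17 were kept in all 8 such fits. Those of Med1, Med28 and Taf13 were lost without any total or KO polysome library, that of Gtf2h5 without any total library or KO polysome replicate 2, and those of Gtf2e1, Med15, Gtf2f1, Med12l, Med21 and Taf4 without at least 1 KO polysome library (adjusted p up to 0.214).

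**Figure D5:**
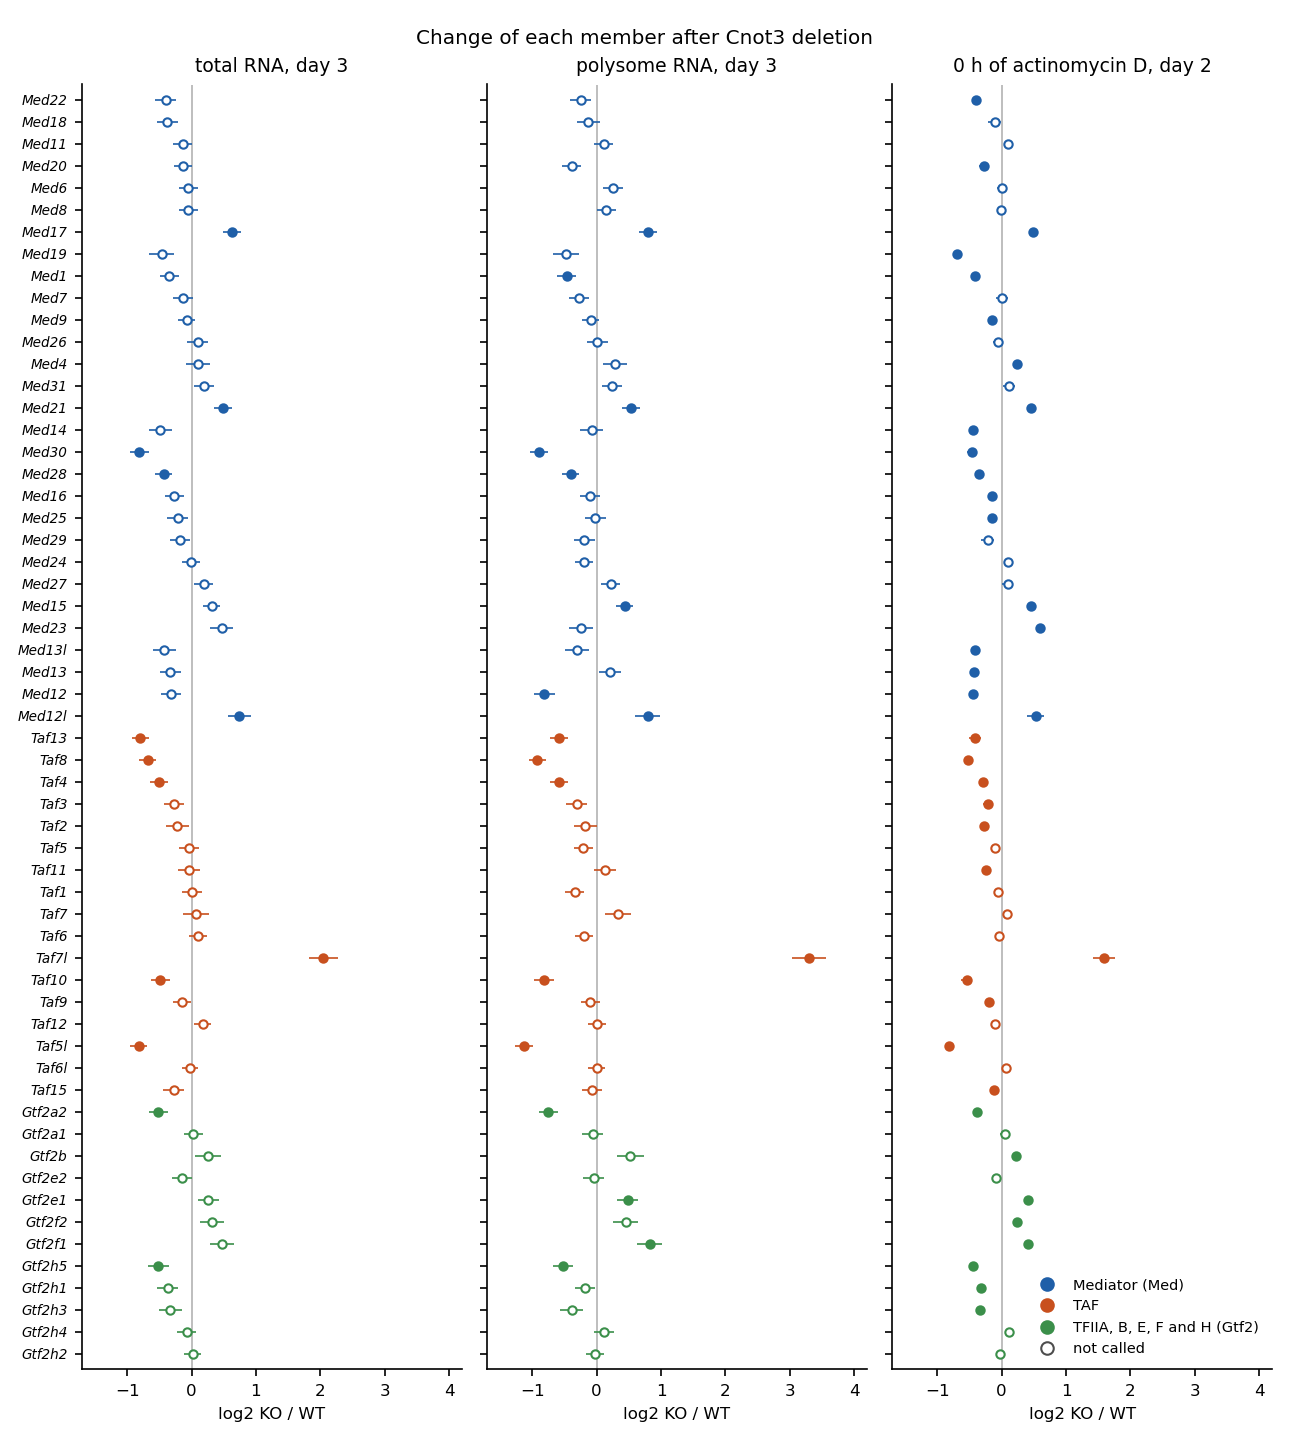
Change of each of 58 members after Cnot3 deletion, as log2 of KO over WT with the standard error of the fit, in total RNA and polysome RNA of day 3 and at 0 h of actinomycin D on day 2, in order of complex and module. Filled points passed an adjusted p of 0.05. Taf7l stands apart on the right in all 3 panels, and Taf5l is among the lowest in each.

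The change in polysomes was also set against the change in total RNA. By edgeR's quasi-likelihood test 0 of 58 members had a polysome change that differed from its total change, 2 (Taf7l and Med23) had an unadjusted p under 0.05, and DESeq2 called 0 members. Over all genes tested 2, or 0.0109%, were called with edgeR (0.00546% higher and 0.00546% lower) and 67 with DESeq2. Taf7l differed by 1.25 ± 0.35 log2 (adjusted p = 0.26, 95% interval 0.49 to 2.02) and Med23 by -0.71 ± 0.26 (adjusted p = 0.33). Med23 stood at 80.5 and 77.8 CPM in WT and 108 and 112 CPM in KO total RNA, but at 44.1 and 67.1 against 44.8 and 49.7 CPM in polysomes, where the groups overlapped. This count moved with 1 library: without WT polysome replicate 1, 17 members were called higher and 2 lower (4959 genes in all), and without any 1 of the other 7 libraries, 0 members.

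Genes that work with the members but carry other symbols were taken from fixed lists. Over all genes tested, 10.2% had a higher and 8.78% a lower slope in KO than in WT. Tbp, the TATA-binding protein, and its relative Tbpl1 both had a slower loss in KO, by 0.13 ± 0.018 (adjusted p = 0.00033) and 0.10 ± 0.023 log2 per hour (adjusted p = 0.0099), and Tbpl2 was not tested. Of 13 SAGA partners 5 had a higher slope in KO, among them Tada1 (0.20 ± 0.024) and Supt7l (0.15 ± 0.013), and 2 a lower one. Of 6 tested genes with other TAF symbols 3 were higher (Taf1b, Taf1c and Taf4b) and 0 lower. The 5 other TFIIH subunits had 1 higher, the kinase Cdk7 (0.17 ± 0.015), and 1 lower, the helicase Ercc2 (-0.057 ± 0.013). By the same test none of Cdk8, Cdk19 and Ccnc, the kinases and cyclin of Mediator, was called. Of 12 subunits of RNA polymerase II itself, 0 had a higher and 2 a lower slope in KO. In WT, 9 of them were lost slower than the typical mRNA and 0 faster, against 35% and 38.8% of all genes. In KO total RNA 7 were lower and 1 higher, against 12.2% and 16% of all genes.

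Sequence features other than the motif were compared as well, as correlations across genes, which are not independent replicates. Over the 58 members, the slope in WT had a Pearson r of -0.08 with 3′UTR length, 0.21 with the number of exons and 0.11 with the GC content at the last base of codons, and a Spearman rho of -0.13, 0.2 and 0.17. For the slope difference these were -0.2, -0.17 and -0.25 (r) and -0.23, -0.13 and -0.26 (rho). Over 14075 protein-coding genes tested the r of the slope difference with GC at the last codon base was -0.11 and rho -0.16. The median GC at the last codon base of the 12 slowed members was 49.6%, with values from 30% (Med21) to 60.7% (Med28). It was 57% over all tested members and 61.7% over all protein-coding genes tested. Over the protein-coding genes lost faster in WT and slower in KO by the same tests it was 55.7%.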

How the data were processed

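RNA-seq was read as HTSeq gene counts, whole-number counts per Ensembl gene ID as deposited, for 20 libraries. The submitters' processing notes name STAR 2.3.0e, HTSeq and mm9, and the strand setting and annotation release are not given in the sources used here. Of 37991 gene IDs, 32919 were paired with a symbol in GENCODE M21 (GRCm38), which also gave lengths, overlaps and 3′UTRs, and no mm9 coordinate was used. Rows naming no gene were left out of library sizes and tests, and the row for reads in no feature held 4.75% to 23.7% of a library's reads in genes, in no feature or ambiguous.

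Counts were tested with edgeR 4.0.16 (R 4.3.3) by the quasi-likelihood test, robust, with TMM scaling, a minimum count of 10 (filterByExpr) and Benjamini-Hochberg adjustment over all genes tested, at a threshold of 0.05. The 8 libraries of day 3 and the 12 with actinomycin D were fitted separately. Slopes came from an intercept and a slope over hours for each arm. Levels are TMM-scaled CPM. Fits were tested on simulated data with 200 changed genes. Alternatives were DESeq2 1.42.0, RLE, library totals, 78 ribosomal protein mRNAs, no filter, fewer libraries, a replicate block, time as a factor (4 h added after seeing the data) and leaving out each library. Nothing in the sources used here says that replicates came from separate cultures beyond their label as biological replicates. The p-values therefore measure the spread between libraries, 2 a group, pooled over all groups of a fit and drawn toward that of other genes. On day 3 the tests in total RNA thus share the spread of the WT polysomes. In the slope fits the spread also holds any departure of a course from a straight line.

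Members and lists were chosen with earlier results of these data known. Genes were named by a rule: in each comparison and complex, all members past the threshold where 4 or fewer in a direction, otherwise the 3 with the smallest adjusted p, the fastest and slowest losses, the kinase module and paralog pairs. Other members named were chosen after their values were seen.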

Additional observations from a re-analysis of the deposited data

Results flagged for a closer look

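Slopes of loss under actinomycin D that differed between the KO and WT arms by a test of the difference itself (edgeR quasi-likelihood test, adjusted p under 0.05) were found for 19 members, as KO minus WT in log2 per hour. Among Mediator genes these were Med4 (0.292), Med17 (0.282), Med6 (0.197), Med31 (0.195), Med23 (0.138), Med21 (0.131), Med28 (0.104), Med8 (0.0553) and Med25 (-0.0566). Among TAFs they were Taf5 (0.166), Taf7 (0.129), Taf6l (0.0536), Taf13 (-0.0759), Taf10 (-0.0626) and Taf15 (-0.0534). Among the other general factors they were Gtf2b (0.279), Gtf2h2 (0.138), Gtf2e1 (0.136) and Gtf2f2 (0.0772). The KO slope was the higher in 15 of these and the lower in 4.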

How the results depend on the processing

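With 2 replicates a group, most day 3 counts moved with single libraries. Leaving out each library in turn, the members called in total RNA ran from 1 to 10 higher and 3 to 24 lower (1290 to 9523 genes), in polysomes from 3 to 15 higher and 7 to 23 lower (3480 to 9406 genes), for the polysome minus total change from 0 to 17 higher and 0 to 2 lower (0 to 4959 genes), and for the slope difference from 0 to 7 lower (1748 to 3679 genes). With only the 4 libraries compared, total RNA gave 11 higher and 26 lower (10936 genes) and polysomes 4 and 4 (3287 genes). With library totals alone, total RNA gave 12 higher and 4 lower, polysomes 15 and 6, 0 h 23 higher, and the slope difference 2 lower. Without a filter polysomes gave 7 lower, and 40 genes had a polysome change apart from the total one, against 67 with DESeq2, which gave 7 higher at 0 h. RLE scaling gave 1 lower slope difference. On the ribosomal protein scale the slopes gave 0 higher and 51 lower in WT, 0 and 54 in KO, and 23 higher and 0 lower differences. With time as a factor, 8 h against 0 h gave 20 higher and 20 lower differences (6715 genes) and 4 h against 0 h 18 and 10. The cause of these shifts was not tested.

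Signs turned mainly on the ribosomal protein scale, for 23 of 24 positive slopes called in WT (all but Taf10) and 27 of 28 in KO (all but Taf7l). Among the members named by rule, with Med12l, whose slopes were not called, these were in WT Gtf2a2 (-0.054), Gtf2h3 (-0.0314), Gtf2h5 (-0.0283), Med12 (-0.0337), Med12l (-0.132), Med16 (-0.0102), Med25 (-0.00117), Med30 (-0.0151), Taf15 (-0.00296), Taf6 (-0.0637) and Taf7l (-0.0241), and in KO Gtf2e2 (-0.0273), Gtf2h3 (-0.0311), Gtf2h5 (-0.0224), Med12 (-0.0283), Med12l (-0.0845), Med15 (-0.0261), Med16 (-0.0221), Med25 (-0.0231), Taf10 (-0.0166), Taf15 (-0.0218), Taf6 (-0.0582) and Taf6l (-0.0559). Taf6 at 0 h was 0.118 with library totals, and the slope difference of Med13 was 0.0694 over the first 4 h. The cause was not tested.

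The labels do not say that a replicate number marks a shared culture or day. Deviations of same-numbered replicates correlated between -0.064 and 0.325 on day 3 (positive in 5 of 6 pairs of groups) and between -0.202 and 0.17 with actinomycin D (11 of 15), so a pairing was not taken as given, and a shared origin on day 3 was not tested. With a replicate block the members called were 4 higher and 9 lower in total RNA, 9 and 11 in polysomes, 0 and 0 for the polysome minus total change, 12 and 27 at 0 h, 23 and 24 for the WT slope, 27 and 19 for the KO slope and 15 and 3 for the slope difference.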
